A study of Mus musculus with 2 samples.

Results

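The nuclei described here were chosen by a rule for striatal projection neurons in the embryonic mouse brain, and 540 of 7531 barcodes with at least 1500 unique molecular identifiers (UMIs, the counted RNA molecules) passed it. The rule asked for at least 4 UMIs over Rarb, Ikzf1, Isl1, Six3 and Ebf1, at least 2 UMIs over the GABAergic genes Gad1, Gad2 and Dlx6os1, no UMI of Lhx6 or Lhx8, and under 5% mitochondrial UMIs. These counts selected the nuclei, so their levels are given as a description only. Beyond the genes it used, the selection did not carry the profile of striatal neurons as a whole. The striatal regulators Foxp1, Foxp2, Bcl11b and Zfp503 were no higher than in all other nuclei, while Meis2 and the marker Sema3e were higher. Bcl11b was higher in the 40 nuclei that passed the rule at equal depth, of which 35 were among the 540. The others held Lhx6 or Lhx8 UMIs at full depth, and their part in this was not tested. All 540 nuclei are therefore called the selected nuclei below.

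Slide-tags single-nucleus RNA sequencing was performed on fresh-frozen tissue cut at 20 µm and placed on an array of barcoded beads. The series holds 1 library of embryonic brain at embryonic day 14 (E14) and 1 library of adult hippocampus, which was not compared with the selected nuclei. The embryo was C57BL/6J, bought as a whole snap-frozen embryo, and cut sagittally. A region was punched from the section, and cell types are read here from the counts alone.

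Striatal projection neurons are the GABAergic output neurons of the striatum. They arise in the lateral ganglionic eminence of the ventral telencephalon and divide into a direct pathway, marked by the dopamine receptor Drd1, the transcription factors Isl1 and Ebf1 and the peptide Tac1, and an indirect pathway, marked by Drd2, Six3 and Penk. Foxp1, Foxp2, Bcl11b, Meis2 and Zfp503 are regulators used by striatal neurons, while Rarb responds to retinoic acid and Sema3e encodes a guidance cue for growing axons.

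With 1 embryonic library there is no replicate and no test. The level of a gene is its UMI total in a class of nuclei, scaled to 1000000 UMIs of that class (CPM). Intervals are exact 95% Poisson intervals for levels, exact binomial (Clopper-Pearson) intervals for shares and conditional binomial intervals for ratios, and all of them cover counting error only. A gene was called when its ratio reached 2-fold in either direction among genes with a mean CPM of at least 10 over both classes, the genes of the rule left out.

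The selected nuclei made up 7.17% of nuclei (95% interval 6.60 to 7.78). They were deep, with a median of 10754 UMIs against 4749 in the 6991 other nuclei. Of 7531 nuclei, 1502 had 4 UMIs over the 5 striatal genes, 845 of these also had 2 GABAergic UMIs, and 540 of those held no Lhx6 or Lhx8 UMI. The embryonic and adult libraries shared 1 barcode. No nuclei were removed as doublets. Scrublet's automatic threshold marked 1 nucleus, so the 560 nuclei with the highest scores were marked in its place, below the expected number of 653. Marked nuclei were 15.4% of the selected nuclei and 6.25% of the other nuclei.

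The share of nuclei that passed the rule climbed with depth. In the lowest quartile, from 1500 to 3177 UMIs, 25 of 1883 nuclei passed (1.33%, 0.861 to 1.95). In the highest, from 8274 UMIs up, 341 of 1883 passed (18.1%, 16.4 to 19.9). The share in the deepest nuclei lay above the interval of every other quartile. When each nucleus was thinned to 1500 UMIs before the rule was read, 40 nuclei passed, of which 35 belonged to the 540. The others held Lhx6 or Lhx8 UMIs that thinning had removed. The thinned share was 0.690% (0.368 to 1.18) in the lowest quartile and 0.584% (0.292 to 1.04) in the highest, so at equal depth no order between the quartiles was detectable.

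**Figure D1:**
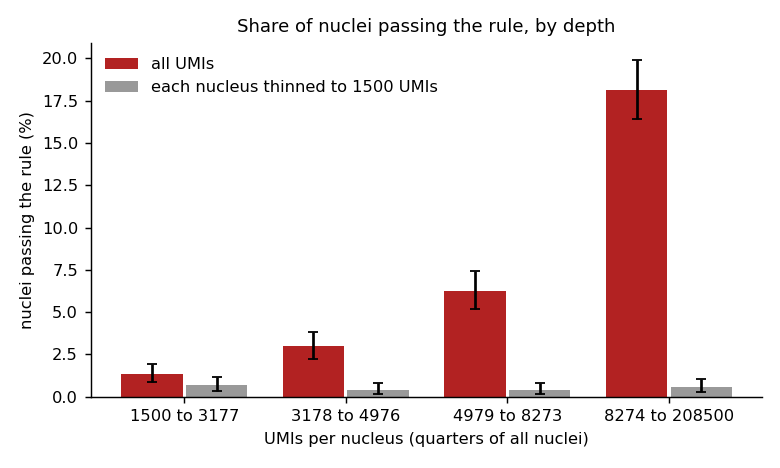
Share of nuclei that passed the rule (%, y axis) in 4 equal groups of nuclei ordered by UMIs (x axis, lowest to highest UMIs of each group), on all UMIs (red) and after thinning to 1500 UMIs (grey), with exact 95% binomial intervals. On all UMIs the share climbs from 1.33% to 18.1%, and after thinning it stays between 0.425% and 0.690%.

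Of the genes that selected the nuclei, Ebf1, a transcription factor also used by mesenchyme and vascular cells, gave 5257 of the UMIs (71.4%). Isl1 gave 1064 (14.4%), Rarb 467 (6.34%), Six3 392 (5.32%) and Ikzf1 185 (2.51%). The Ebf1 gene spans 390.8 kb of chromosome 11 and Rarb 388.3 kb of chromosome 14, while Isl1 spans 11.41 kb of chromosome 13 and Six3 15.7 kb of chromosome 17 (GENCODE vM21, GRCm38). Intronic reads were counted, so long genes can collect more UMIs. The part of gene length in these shares was not tested. A selected nucleus held a median of 7 UMIs over these genes (lowest 4, highest 189), and Ebf1 reached 172 UMIs in a nucleus.

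Most selected nuclei held few of the genes together. UMIs of 1 gene alone admitted 149 nuclei (27.6%), of which 91 had Ebf1 only and 43 had Isl1 only. A pair of genes was seen in 254 nuclei, 3 genes in 118, 4 genes in 18, and all 5 genes in 1 nucleus. Ebf1 had the most UMIs in 270 nuclei, Isl1 in 139, Rarb in 39, Six3 in 30 and Ikzf1 in 17, and 45 were tied. Without Ebf1 in the sum, 304 nuclei remained.

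**Figure D2:**
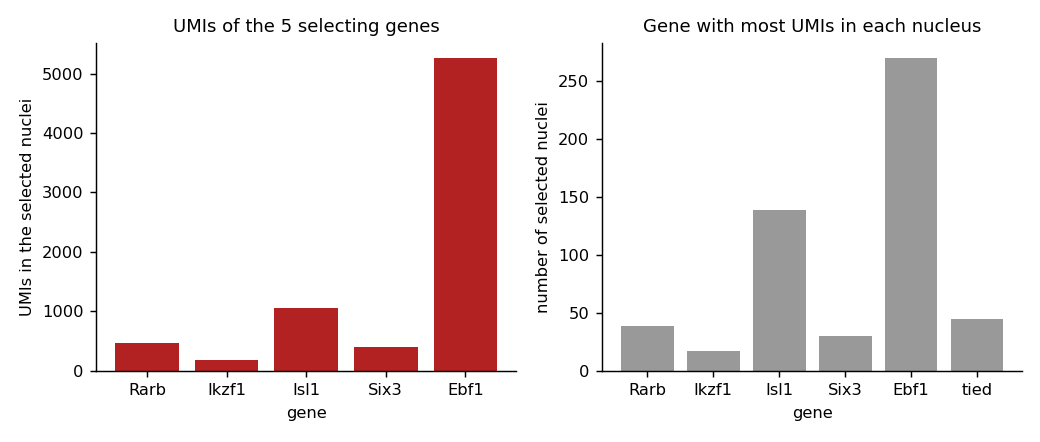
Left, UMIs of each of the 5 selecting genes summed over the 540 selected nuclei (y axis). Right, number of selected nuclei in which each gene had the most UMIs, with ties apart; Ebf1 leads 270 nuclei and Isl1 leads 139.

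Levels of the selecting genes followed from the rule and are given without weight. Ebf1 stood at 682 CPM in the selected nuclei and 260 in all others, and Isl1 at 138 and 43.5. Rarb was at 60.6 and 32.7 CPM, Six3 at 50.9 and 20.5, and Ikzf1 at 24.0 and 6.01. On pooled UMIs, Ebf1 was as high in 309 mesenchymal nuclei, at 696 CPM (670 to 723). These had at least 4 UMIs of collagen genes Col1a1, Col1a2 and Col3a1. Rarb was higher there, at 123 CPM (112 to 134). By the mean of each nucleus' CPM, in which every nucleus counts equally, Ebf1 was at 1133 in the selected nuclei and 724 in mesenchyme. Rarb was at 79.5 and 218 on that scale. Nuclei just inside the threshold, with 4 UMIs over the genes (117 nuclei), had Bcl11b at 175 CPM and Sema3e at 55.5. Those just outside it, with 3 UMIs (157 nuclei), had Bcl11b at 138 and Sema3e at 57.1.

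The sequence upstream of Rarb is shown because the gene selected nuclei and is a classic target of retinoic acid, and that of Sema3e because it is the marker outside the rule. Both are RefSeq windows of 250 bases before the start (GRCm38.p6), Rarb at chr14:16575477-16575726 on the minus strand and Sema3e at chr5:14025026-14025275 on the plus strand, read 5′ to 3′. Capitals mark a direct repeat of retinoic acid receptor hexamers (the letters AGTTCA, or else GGTTCA, or else AGGTCA, or else GGGTCA, on either strand) with 5 bases between them.
Rarb: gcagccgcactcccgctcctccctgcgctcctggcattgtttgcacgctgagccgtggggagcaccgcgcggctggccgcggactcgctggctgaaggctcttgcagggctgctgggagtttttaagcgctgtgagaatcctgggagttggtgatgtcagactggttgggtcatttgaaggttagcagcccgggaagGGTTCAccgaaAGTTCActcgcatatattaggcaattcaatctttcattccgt
Sema3e: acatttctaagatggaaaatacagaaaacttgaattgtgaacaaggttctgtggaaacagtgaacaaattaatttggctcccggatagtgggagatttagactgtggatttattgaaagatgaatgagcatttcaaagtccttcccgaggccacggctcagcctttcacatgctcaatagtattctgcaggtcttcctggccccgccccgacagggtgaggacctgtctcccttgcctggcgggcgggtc
The Rarb window lies before the start of an inner transcript, 243.7 kb downstream of the outermost Rarb start in the annotation, and the repeat begins 53 bases before that inner start. Of all windows of this length, 29 of 32851 (0.0883%) hold one. None of the hexamers occurs in the Sema3e window, against 38.6% of windows with at least 1. A match is a description of letters, not of binding.

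Of the other genes of retinoic acid signalling, 3 of 12 passed the floor and none was called. Their median ratio to all other nuclei was 1.25.

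The label was then checked with genes outside the rule, the striatal regulators first. Of these, 9 of 11 passed the floor and none was called. Their median ratio to all other nuclei was 0.953, beside 0.989 for all genes. Foxp1 was at 428 CPM (413 to 443) in the selected nuclei, 446 (441 to 452) in all others and 717 (691 to 744) in mesenchyme. Foxp2 was at 289 CPM (277 to 301) against 321 (316 to 326). Bcl11b, which encodes the striatal regulator Ctip2, was at 159 CPM (150 to 168) against 191 (187 to 195). It was at 130 (119 to 142) in mesenchyme and at 425 (389 to 463) in the 105 cortical excitatory nuclei. The latter had at least 4 UMIs of Neurod2 and Neurod6 and none of the GABAergic genes. By the mean of each nucleus' CPM, Bcl11b was at 194 in the selected nuclei against 202 in all others, and Foxp2 at 256 against 313.

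Shares of nuclei with a Bcl11b UMI depended on depth. On all UMIs, 50.2% of selected nuclei (median depth 10754), 37.98% of all others (4749) and 31.1% of mesenchymal nuclei (5810) held one. A median selected nucleus held 1 Bcl11b UMI and the highest held 44. After thinning to 1500 UMIs the shares were 18.1% (15.0 to 21.7), 18.8% (17.8 to 19.7) and 7.77% (5.04 to 11.3), with 53.3% (43.3 to 63.1) in cortical excitatory nuclei. At equal depth the selected nuclei were above mesenchyme and could not be told from all other nuclei.

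In the 207 Lhx6 neurons, nuclei with at least 2 Lhx6 UMIs, no Lhx8 UMI and at least 2 GABAergic UMIs, Bcl11b was at 361 CPM (339 to 383). Meis2 was higher in the selected nuclei than in all other nuclei, at 1384 CPM against 1131 (ratio 1.22, 1.20 to 1.25). Its level lay within a range of 826 in mesenchyme to 1654 in ventral progenitors. By the mean of each nucleus' CPM, Meis2 was at 1565 in the selected nuclei and 742 in Lhx6 neurons. On that scale it was at 1704 in cortical excitatory nuclei and 2110 in ventral progenitors. In the 40 nuclei passing the thinned rule, the log2 ratio to all other nuclei was 1.35 for Bcl11b, against -0.27 in the 540. That of Foxp1 in the 40 was 0.14. Some of the 40 held Lhx6 or Lhx8 UMIs before thinning, and their part in these ratios was not tested. Zfp503, the striatal regulator Nolz1, gave 43 UMIs in the 540 selected nuclei, or 5.58 CPM against 6.19 in all others.

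**Figure D3:**
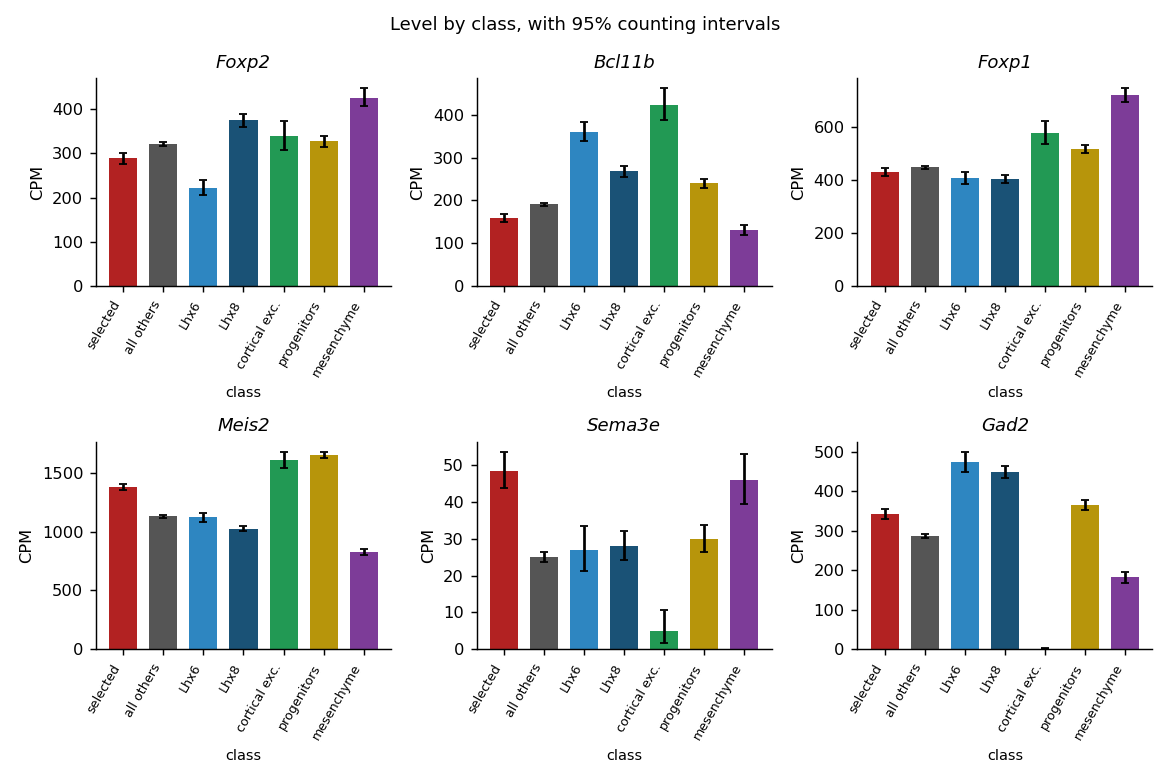
CPM (y axis) of 6 genes in the selected nuclei, all other nuclei and 5 classes (x axis), with exact 95% Poisson intervals. On these pooled UMIs, Foxp2 and Bcl11b in the selected nuclei lie below all other nuclei, and the interval of Sema3e overlaps that in mesenchyme.

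Sema3e was the marker outside the rule that stood out. It was at 48.5 CPM (43.7 to 53.7) in the selected nuclei and 25.1 (23.7 to 26.5) in all others, a ratio of 1.93 (1.72 to 2.17), and at 45.9 (39.5 to 53.1) in mesenchyme. UMIs of it were found in 112 selected nuclei (20.7%), with a median of 0 and a highest value of 18, against 7.48% of all others and 21.4% of mesenchymal nuclei. At 1500 UMIs the shares were 6.48% (4.56 to 8.90), 2.69% (2.32 to 3.10) and 6.47% (3.998 to 9.82). By the mean of each nucleus' CPM, which gives shallow nuclei equal weight, the ratio was 2.92. On that scale Sema3e was at 75.5 in the selected nuclei and 47.3 in mesenchyme. On the log2 scale the ratio was 0.95, and it fell to 0.28 when Isl1 was left out of the rule and was 1.51 when Ebf1 was left out.

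Signalling genes of striatal neurons were mostly near their level in all nuclei. Of 19, 9 passed the floor, none was called, and the median ratio was 1.05. Pde10a, a phosphodiesterase of striatal neurons, was at 226 CPM against 224. The defining genes of the mature types were near the floor of the library: 3 Drd1 UMIs, 54 of Drd2, 36 of Tac1 and 26 of Penk in 7708266. Drd2 was at 7.01 CPM (5.26 to 9.14) against 4.93 (4.33 to 5.58). Ppp1r1b, which encodes DARPP-32, had no UMI, which allows up to 0.389 CPM. Among direct-pathway genes 2 of 7 passed the floor, among indirect-pathway genes 2 of 7, among striosome genes 2 of 5 and among matrix genes 3 of 4, and none was called.

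Levels of the GABAergic genes, which the rule also used, were modest. Gad2, which makes GABA, was at 342 CPM (329 to 355) in the selected nuclei, 286 (281 to 291) in all others, 474 (449 to 500) in Lhx6 neurons and 182 (169 to 196) in mesenchyme. By the mean of each nucleus' CPM the ratio of Gad2 to all others was 1.61. Gad1 was at 134 CPM against 131. Dlx6os1, a transcript of the Dlx5 and Dlx6 locus, was lower, at 234 CPM against 368. After thinning, 36.9% (32.8 to 41.1) of selected nuclei kept 2 GABAergic UMIs, against 74.9% (68.4 to 80.6) of Lhx6 neurons, 25.0% (23.9 to 26.0) of all others and 8.74% (5.84 to 12.5) of mesenchymal nuclei. Slc32a1, the vesicular GABA transporter and not in the rule, was at 27.5 CPM against 20.8 (ratio 1.32, 1.14 to 1.53).

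Across the genome the selected nuclei were close to the average of the other nuclei. Of 10602 genes past the floor, 3 were at least 2-fold higher (0.0283%) and 7 at least 2-fold lower (0.066%). The ratio was between 0.831 and 1.16 for the middle 90% of genes. Higher genes were Gm12158, Ptgds and Hba-x. Ptgds, a prostaglandin synthase of meninges and choroid plexus, was at 105 CPM against 42.3 (ratio 2.49, 2.29 to 2.70), with 47.1% of its UMIs in 1 nucleus. Hba-x, an embryonic globin, was at 48.8 CPM against 19.7, with 67.3% of its UMIs in 1 nucleus. When the nucleus with most UMIs of the gene was left out of each group, the ratios of Ptgds and Hba-x fell to 1.53 and 1.00, and 1 gene, Gm12158, stayed called. Without the nuclei marked as likely doublets, 6 genes were higher and 11 lower.

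The next highest ratios were below the fold, and some rested on 1 nucleus. After Sema3e came Ecrg4 (ratio 1.93), which had 45.5% of its UMIs in 1 nucleus and fell to 1.13 without the highest nucleus of each group, Gm49678 (1.89, then 1.62) and Gm4128 (1.82, then 1.75). They were followed by the potassium-channel subunit Kcnmb2 (423 CPM against 240, ratio 1.76, 1.69 to 1.83), Kctd16 (ratio 1.76), the synaptic vesicle protein Sv2c (1.70) and Fign (476 CPM against 282, ratio 1.69, 1.63 to 1.75). Prdm6 had a ratio of 1.66, with 28.7% of its UMIs in 1 nucleus, and fell to 1.26. Six3os1, the antisense neighbour of Six3 (1.63), the transcription factor Prox1 (1.63, 1.48 to 1.80) and Gm29571 (1.62, then 1.41) completed the 15 highest. Kcnmb2, Kctd16, Sv2c, Fign, Six3os1 and Prox1 had at most 5.73% of their UMIs in 1 nucleus. By the mean over nuclei 12 genes were 2-fold higher, among them Sema3e (2.92), Kcnmb2 (2.48), Fign (2.29), Sv2c (2.28) and Prox1 (2.12), and 12 were lower.

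Lower genes included partners of Lhx6 and Lhx8, whose absence the rule required. Nkx2-1, the regulator of the medial ganglionic eminence, was at 11.8 CPM against 25.5 (ratio 0.462, 0.369 to 0.572), and Sfta3-ps at 71.1 against 178. Trp73, a gene of Cajal-Retzius cells, was at 8.69 CPM against 18.97, and Mrc1, of border macrophages, at 8.04 against 21.02. Cdc20b, Prlr and Gmnc were the others below 0.5, and Stab1 (0.527), Wnt7a (0.550) and Etv1 (0.557) completed the 10 lowest.

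**Figure D4:**
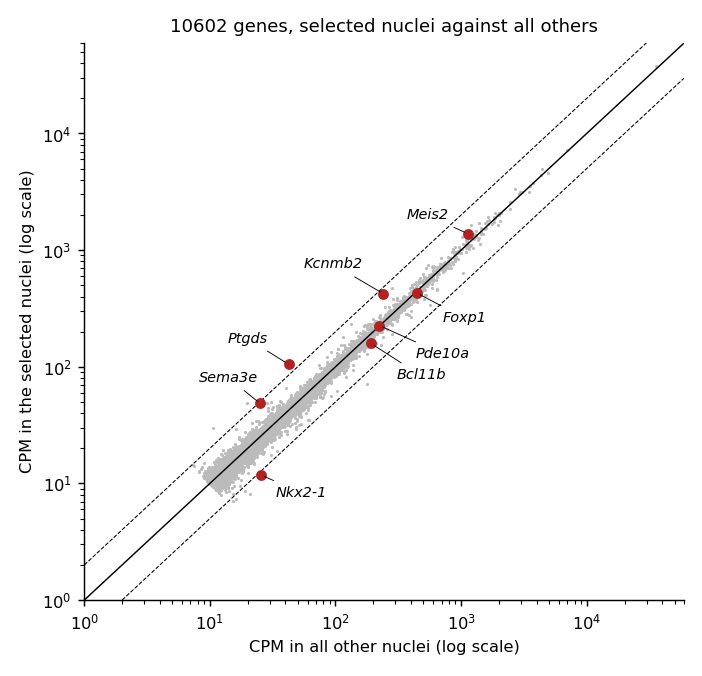
CPM of 10602 genes in all other nuclei (x axis, log scale) and in the selected nuclei (y axis, log scale), with the line of equality (solid) and 2-fold lines (dashed); red points are named genes. The cloud hugs the line of equality, with Ptgds above and Nkx2-1 below the 2-fold lines and Sema3e just inside.

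Programmes that could set the selected nuclei apart in age or region did not pass the fold either. All 10 neuronal maturation genes passed the floor, with a median ratio of 1.06 (Stmn2 544 CPM against 475, Tubb3 498 against 449). All 8 progenitor genes passed, with a median of 0.858 (Mki67 49.9 CPM against 64.5, Cenpf 37.1 against 53.5). The 9 genes of GABA transmission had a median of 1.01. Of 10 genes of the Dlx family and the lateral ganglionic eminence, 6 passed, with a median of 0.930; Dlx1 was at 60.8 CPM against 63.9. Of 18 axon guidance genes, 17 passed, with a median of 0.930; Epha4, which is also in the matrix list, was at 300.5 CPM against 401, and Ntn1 at 39.8 against 58.1.

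Markers of other cell types were carried by the selected nuclei at about the level of all nuclei. Median ratios were 0.908 for 5 cortical excitatory genes past the floor, 0.974 for 3 thalamic genes, 1.18 for 5 mesenchymal genes, 0.947 for 3 mural genes, 0.983 for 5 endothelial genes, 0.935 for 2 microglial genes, 1.02 for 4 erythroid genes and 1.24 for 3 choroid plexus genes. Of 5 hypothalamic genes past the floor the median was 0.948 and 1 was called, Nkx2-1, which is also 1 of the 5 past the floor of the list for the medial ganglionic eminence (median 0.843). The list for the caudal ganglionic eminence and olfactory bulb had a median of 1.37 over 3 genes. Genes of the cholinergic, sensory ganglion and retina lists were all under the floor.

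UMIs of several of these lists were found in the same nuclei, more often in deep nuclei. Of 9 lists of other tissues, 3 or more reached 2 UMIs in 63.7% (59.5 to 67.8) of selected nuclei and in 37.4% (36.3 to 38.6) of all others. After thinning, 41.5% (37.3 to 45.8) of selected nuclei and 51.9% (50.7 to 53.0) of all others had at least 1 such list. The number of lists asked for differed between the readings, so they cannot be compared with each other. On all UMIs, 2 UMIs of hypothalamic genes were found in 50.4% of selected and 29.2% of all other nuclei, of microglial genes in 43.9% and 23.5%, of cortical excitatory genes in 41.3% and 27.7%, and of mesenchymal genes in 15.2% and 8.15%. After thinning the shares were 7.78% and 8.51%, 4.07% and 4.96%, 3.70% and 6.21%, and 5.56% and 4.32% in the same order. Of these lists, only that of mesenchymal genes kept a higher share in the selected nuclei at equal depth. Mural genes (2.04% in selected and 1.40% in all other nuclei) and endothelial genes (3.15% and 2.09%) also stayed higher after thinning. Thalamic genes (9.81% and 14.05%), erythroid genes (8.15% and 10.7%) and choroid plexus genes (8.70% and 18.97%) did not. Shares of single lists are given without intervals, so whether these differences exceed counting error was not tested. The part of doublets in these shares was not tested.

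Against Lhx6 neurons, the interneurons of the medial ganglionic eminence, 63 of 10549 genes were higher in the selected nuclei (0.597%) and 134 lower (1.27%). Of 5 genes past the floor of the list for interneurons of the medial ganglionic eminence, 4 were called lower. Sox6, an interneuron regulator, was at 342 CPM against 1464 (ratio 0.233, 0.222 to 0.245), the chemokine receptor Ackr3 at 15.4 against 82.4 and Dlx6 at 24.1 against 86.3. The lowest ratios also held Sfta3-ps (0.182), Gm12068, Sox1ot (0.235), Gm45025, Sox1 (0.246) and Gm26973. Of the 6 genes of the Dlx family and lateral ganglionic eminence past the floor, 4 were called lower, with a median ratio of 0.446, and so were 3 of 8 progenitor genes. Higher genes were Ptgds, the peptide gene Cartpt (19.3 CPM against 1.75), the transcription factors Onecut3 (ratio 4.32, 2.34 to 8.88) and Onecut1 (2.73), Hba-x, and Il1rapl2, a synaptic adhesion protein (155 CPM against 41.9, ratio 3.69, 3.05 to 4.49). No gene of the striatal signalling list was called, and of the regulators Bcl11b was called lower.

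Against Lhx8 neurons (382 nuclei with at least 2 Lhx8 UMIs and 2 GABAergic UMIs, median 10089 UMIs), 37 of 10500 genes were higher in the selected nuclei (0.352%) and 30 lower (0.286%). Lower genes were AI606473 at 2.21 CPM against 52.3, the homeobox gene Gbx1 at 5.58 against 27.9, Nkx2-1 at 11.8 against 48.6, and Adarb2, an RNA-binding protein, at 632 against 2132. Robo3, an axon guidance receptor, was at 7.78 CPM against 26.7 and Etv1 at 19.1 against 61.5. Higher genes were Ptgds, Ranbp3l (47.7 CPM against 12.7), the peptide gene Sst (44.9 against 14.7), Onecut1, Onecut3, Cbln1 and the hypothalamic regulator Otp (35.5 against 13.2, ratio 2.70, 2.13 to 3.46). None of the 9 striatal regulators past the floor was called. By the mean of each nucleus' CPM, Meis2 was at 1565 in the selected nuclei and 690 in Lhx8 neurons.

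The selected nuclei were not alike among themselves. Groups by leading gene and their leading differences were chosen after values had been seen. In the 270 nuclei led by Ebf1, 42 of 4230 genes with a mean of at least 50 CPM were 2-fold higher than in the other selected nuclei (0.993%). They were headed by Ptgds (187 CPM against 4.92), Mecom (167 against 18.2), the choroid plexus genes Htr2c (297 against 72.3) and Ttr (2095 against 538), and the basement membrane collagen Col4a1 (266 against 69.7, ratio 3.82, 3.32 to 4.41). A single nucleus held 3304 of the Ttr UMIs (37.1%), and without it the ratio of Ttr was 2.47 in place of 3.89. Among the other selected nuclei 1 nucleus held 1315, and without both the ratio was 8.36. A single nucleus also held 48.1% of Ptgds and 21.2% of Htr2c UMIs. Without the highest nucleus of each group, 37 of the 42 genes stayed called. These nuclei held Gad2 at 242 CPM (227 to 257), less than the 286 of all other nuclei, and 21.5% of them were marked as likely doublets. At least 2 UMIs of mesenchymal genes were found in 23.3% of them, of mural genes in 23.7% and of endothelial genes in 18.5%. In all other nuclei these shares were 8.15%, 7.78% and 5.16%. In nuclei led by Isl1 they were 4.32%, 7.91% and 0.719%. The shares were not read at equal depth. Median UMIs were 12719.5 in nuclei led by Ebf1, 8820 in those led by Isl1 and 4749 in all other nuclei.

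The 139 nuclei led by Isl1 were different. Gad2 was at 498 CPM (464 to 533), Sema3e at 115 (98.9 to 133) and Meis2 at 1852 (1786 to 1919), while the endothelial gene Flt1 had 1 UMI and Ptgds none. Of 4189 genes, 19 were 2-fold higher than in the other selected nuclei (0.454%), and 13 of them stayed called without the highest nucleus of each group. The highest ratio was that of Hba-x (163 CPM against 18.7, ratio 8.69), with 96.6% of its UMIs in 1 nucleus, and it was 0.411 without the highest nuclei. The globin gene Hbb-y (2.73, then 0.358) and Apoe (2.66, then 0.320) also had about 90% of their UMIs in 1 nucleus. Others were Il1rapl2 (366 CPM against 98.6, ratio 3.71), Sema3e (ratio 3.70, 3.01 to 4.56), the peptide gene Sst (3.25), Nell1 (ratio 2.80) and Kcnmb2 (ratio 2.36, 2.20 to 2.54). At least 2 UMIs of choroid plexus genes were found in 56.1% of them, against 55.9% of all other nuclei and 68.1% of nuclei led by Ebf1. Likely doublets were 7.19% of them. Bcl11b was at 166 CPM (147 to 187).

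Smaller groups had their own leading genes. In 39 nuclei led by Rarb, 19 of 4148 genes were higher (0.458%), of which 4 stayed called without the highest nucleus of each group. The hypothalamic peptide gene Pmch was at 373 CPM against 43.0, its UMIs coming from 6 nuclei and 59.8% of them from 1. In 30 nuclei led by Six3, 29 of 4232 genes were higher (0.685%) and 13 of them stayed called, among them the receptor Gfra1 (430 CPM against 116), the hypothalamic regulator Sim1 (293 against 83.8) and Six3os1 (137 against 44.8). Bcl11b there was at 147 CPM (112 to 188). In the 17 nuclei led by Ikzf1, Lhx1 was at 299 CPM (234 to 377) and Sema3e had no UMI.

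Isl1 and Six3, which mark opposite pathways in striatal neurons, were used to split the selection: 134 selected nuclei with at least 2 Isl1 UMIs and no Six3 UMI (the Isl1 side, 1679149 UMIs) were compared with 24 nuclei with the reverse (the Six3 side, 459424 UMIs). The sides are named by these genes only, since neither held a Drd1 UMI. Several leading genes of the Six3 side, Ptgds and Slc6a13 among them, had nearly all their UMIs there in 1 nucleus. Of 4335 genes with a mean of at least 50 CPM, 103 were 2-fold higher on the Isl1 side (2.38%) and 144 on the Six3 side (3.32%). On the Isl1 side the highest ratios were those of the secreted protein Nell1 (261 CPM against 21.8, ratio 12.0, 6.45 to 25.2), Sema3e (99.5 against 10.9, ratio 9.14, 3.84 to 28.5), Fstl4, Hs3st5, Il1rapl2 (254 against 47.9), the muscarinic receptor Chrm3, the netrin receptor Unc5c (1127 against 233, ratio 4.84, 3.98 to 5.93), and Rnf220. Leaving out the highest nucleus for each gene raised all 8 ratios, for example that of Sema3e to 13.1. The Six3 side held few UMIs of several of these genes (5 of Sema3e, 6 of Fstl4, 10 of Nell1). Leaving a nucleus out there shrinks an already small count, so this check says little about how stable the ratios are. Prox1 and Kcnmb2 had ratios of 4.30 and 4.29.

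On the Six3 side most of the leading values came from very few nuclei. Of 385 Ptgds UMIs, 99.2% were in 1 nucleus, as were 97.0% of H19 and 97.8% of Slc6a13 UMIs. Without the highest nucleus for each gene 50 genes were higher on the Six3 side, of which 47 were among the 144 and 3 were not. The ratios of Ptgds and H19 between the Isl1 side and the Six3 side moved from 0.0455 and 0.104 to 0.747 and 1.74. That of Slc6a13 moved from 0.149 to 4.76, which is higher on the Isl1 side. Cartpt kept its ratio (0.0581, then 0.0601), Rspo2 and Sned1 went from 0.154 and 0.163 to 0.189 and 0.291, and Sst was at 128 CPM against 23.2. The hypothalamic regulators Otp (113 CPM against 21.4) and Sim1 (272 against 55.4) were outside the leading 8.

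The defining genes of the pathways were too rare to compare between the sides. Drd2, of the indirect pathway, had 20 UMIs on the Isl1 side and 2 on the Six3 side, or 11.9 and 4.35 CPM (ratio 2.74, 0.665 to 24.1). Tac1, of the direct pathway, was at 5.36 and 2.18 CPM (ratio 2.46, 0.341 to 108), and Penk at 3.57 and 2.18 (ratio 1.64, 0.199 to 75.5). All 3 intervals hold 1. Bcl11b was at 118 CPM on the Isl1 side and 124 on the Six3 side (ratio 0.950, 0.705 to 1.30), and Ebf1, which the rule also used, at 595 and 257.

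Finally, all nuclei were clustered without the genes of the rule, to see where the selected nuclei lay. They were found in 22 of 23 clusters. The largest number, 100, fell in a cluster of 661 deep nuclei (15.1% of it, median 11917 UMIs) led by Creb5, Etl4 and Boc. Another 59 were in a cluster of 828 led by Prox1 and Ecel1 (7.13%, beside 7.17% of all nuclei). In a cluster of 340 led by Ranbp3l and Slc6a13, genes of meninges, 40 nuclei were selected (11.8%). In a cluster of 184 led by Aplnr and the endothelial gene Flt1, 29 were selected (15.8%). The highest share was in a cluster of 266 nuclei led by Sema3e, Fign, Kcnmb2, Slc44a5 and Piezo2, of which 74 (27.8%) were selected. These 74 were 13.7% of the 540. Of nuclei led by Isl1, 40 of 139 were in that cluster, and of nuclei led by Ebf1, 6 of 270.

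Sema3e leads that cluster, so its level there is a description. The 74 selected nuclei of the cluster had Sema3e at 373 CPM (322 to 428) and its 192 unselected nuclei at 345 (309 to 385). Outside the cluster, the 466 selected nuclei had 24.5 CPM (21.03 to 28.4) and the 6799 others 18.9 (17.7 to 20.1), a ratio of 1.30 (1.10 to 1.53) against 1.93 over all nuclei. Fign and Kcnmb2 outside it had ratios of 1.36 (1.30 to 1.42) and 1.32 (1.26 to 1.39). Fign was at 2512 CPM in the selected and 2463 in the other nuclei of the cluster, and Gad2 at 905 (826 to 990) and 801 (745 to 859). Of 3793 genes with a mean of at least 50 CPM, 16 were 2-fold higher in the selected nuclei of the cluster (0.422%) and 21 lower (0.554%), with Sfta3-ps the highest (97.8 CPM against 35.7) and the synaptic protein Nxph1 the lowest (103 against 399.8).

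The unselected nuclei of the cluster were shallower, with a median of 3691 UMIs against 5466 for the selected, and 177 of the 266 nuclei of the cluster had under 4 UMIs of the 5 genes. Isl1, a gene of the rule, was still at 269 CPM (237 to 304) in the unselected nuclei of the cluster, above the 43.5 of all nuclei outside the selection. Meis2 was at 3119 CPM (3008 to 3234) in them and 2523 (2390 to 2662) in the selected ones.

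Even here, other regulators of striatal neurons were low. Bcl11b was at 24.5 CPM (13.0 to 41.8) in the selected nuclei of the cluster and 59.8 (45.3 to 77.5) in its other nuclei, against 191 in all other nuclei. Foxp2 was at 54.6 and 90.2 against 321, and Foxp1 at 297 (253 to 347) and 387 (349 to 429) against 446. The cluster was Gad2-, Meis2- and Isl1-rich and Bcl11b-poor, and it is named here by its leading genes only.

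**Figure D5:**
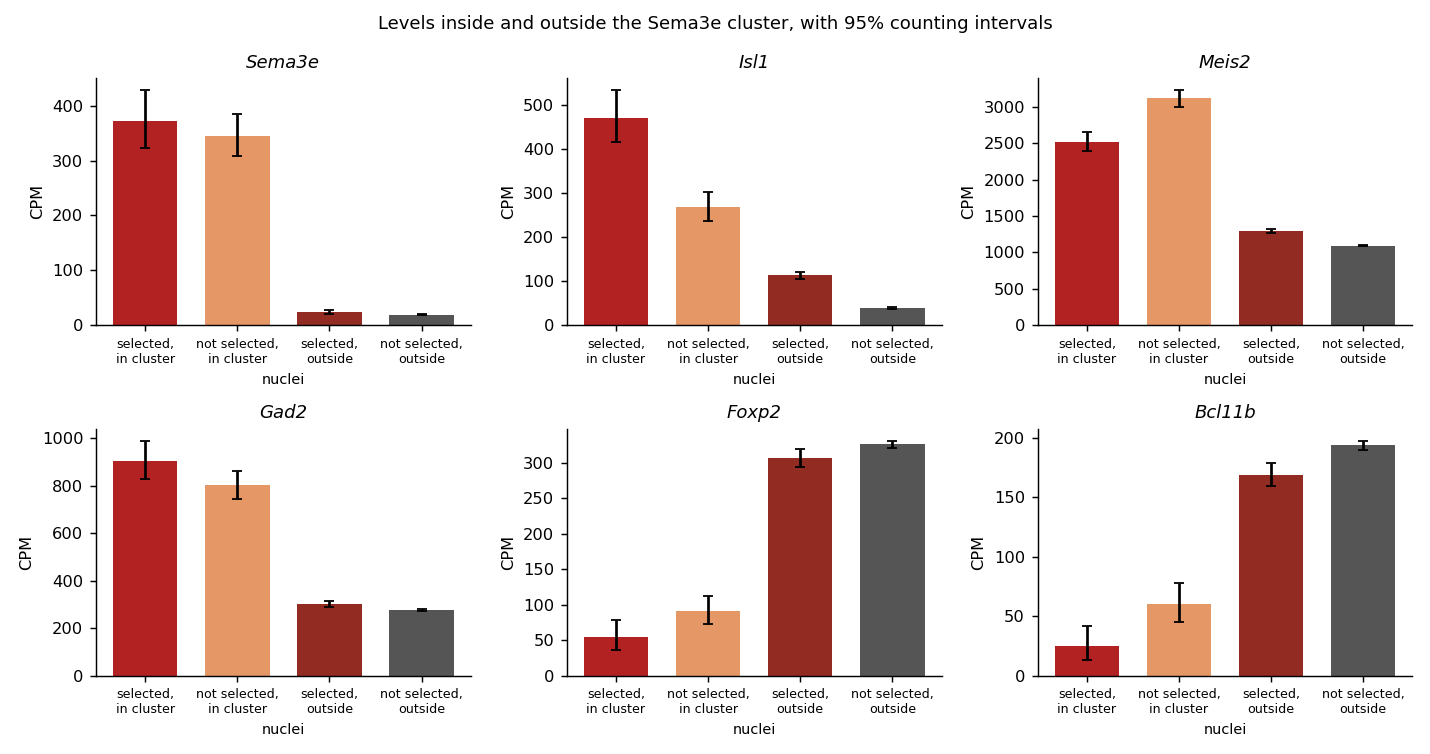
CPM (y axis) of 6 genes in the 74 selected and 192 unselected nuclei of the Sema3e cluster and the 466 selected and 6799 unselected nuclei outside it (x axis), with exact 95% Poisson intervals. Sema3e, Meis2 and Gad2 are high in both parts of the cluster, Foxp2 and Bcl11b are low in both, and outside the cluster selected nuclei lie within 1.30-fold of the others for these genes except for Isl1, which the rule used.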

How the data were processed

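Single-nucleus RNA sequencing followed spatial barcoding of a tissue section (Slide-tags) in 1 library of embryonic mouse brain and 1 of adult hippocampus. The authors deposited UMI counts for 32285 genes, from reads aligned to mm10 with intronic reads counted. The file header names Cell Ranger 7.0.1, while the study's methods name another version and CellBender for removing background RNA from the embryo. Whether the deposited matrix had passed through CellBender is not given in the sources used here. The embryonic library held 58924407 UMIs in 9037 barcodes, the lowest with 500 UMIs, of which 7531 had at least 1500 UMIs and under 5% mitochondrial UMIs. Nuclear positions were not analysed here.

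For each class, gene totals were scaled to CPM, with exact intervals at 95%. The rule was applied to every nucleus. Genes with a mean of at least 10 CPM over both classes (50 between small groups) were called at 2-fold, the genes of the rule left out, and a class without a UMI took a floor of 3 counts. Named genes were those of the marker lists, the 15 highest and 10 lowest ratios to all other nuclei, and the 8 highest and 8 lowest in the comparisons with Lhx6 and Lhx8 neurons and between the sides, with unnamed transcripts (Gm, Rik) counted but not always named. Genes named outside this, by leading gene, by cluster or on the sides, were chosen after their values were seen. Thinning drew 1500 UMIs from each nucleus without replacement. Clustering without the genes of the rule used 2000 variable genes, 30 principal components, 20 neighbours and Leiden at resolution 0.8 (scanpy 1.11.5, Python 3.11.15, numpy 2.4.6, scipy 1.17.1). The scripts were tested on simulated data. Members, lists and rules were chosen with earlier results of these data known. Promoters came from RefSeq and gene positions from GENCODE vM21. Alternatives changed the minimum, the genes of the rule, depth, doublets, the mean and the floor. Some items, and the alternatives that need them, are not reported here.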

Additional observations from a re-analysis of the deposited data

How the results depend on the processing

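The 540 selected nuclei became 343 with a minimum of 6 UMIs over the striatal genes, 304 without Ebf1, and 40 when the rule was read on nuclei thinned to 1500 UMIs. Of the values that answer a comparison, 83 stayed within their limits under an alternative and 41 moved. The causes were not tested, except that the thinned rule left few nuclei.

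Counts of genes moved as follows, each given as higher and lower in the selected nuclei where both moved. Against all other nuclei, they were 505 and 842 under the thinned rule, 11 and 15 without Ebf1, 5 and 4 with a minimum of 3, 6 and 11 without likely doublets, and 12 and 12 on the mean of each nucleus' CPM. Only the lower count moved to 1 at a doubled floor, and only the higher count moved to 1 without the highest nucleus of each gene. Against Lhx6 neurons, they were 672 and 874 under the thinned rule, 396 and 263 on the mean, and 26 and 88 at the doubled floor. The higher count was 108 without likely doublets and 99 without the highest nucleus. Against Lhx8 neurons, they were 592 and 765 under the thinned rule and 124 and 77 on the mean. The higher count was 58 without likely doublets, 20 at the doubled floor and 56 without Isl1, and the lower count was 51 without Ebf1.

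Between the Isl1 and Six3 sides, the counts were 55 and 77 with a minimum of 3, 66 and 53 at the doubled floor, 175 and 50 without the highest nucleus, and 35 and 30 when a side needed 1 UMI. The Six3 count was 259 without Ebf1 and 289 without Six3. The sides under the thinned rule were not run, since too few nuclei were left.

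Reversed log2 ratios to all other nuclei were those of Nkx2-1 (0.056), Ptgds (-1.63), Hba-x (-0.94) and Trp73 (1.37) under the thinned rule, and Hba-x (-0.65) without Isl1. Leaving out the highest nucleus of each gene was chosen after seeing the data, and by leading gene it moved the counts of higher genes from 19 to 4 (Rarb) and from 29 to 13 (Six3). No paired analysis was possible because each tissue has 1 library. Depth and the single library limit every value: intervals hold no variation between animals.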
